A study of Homo sapiens with 9 samples.

Results

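The comparison described here set the mean of 6 libraries that carried a hairpin to EHMT2 against 3 libraries that carried a scrambled one (shSCR), in MCF10A, a line of immortalised human epithelial cells from the breast. EHMT2 encodes G9a, a histone methyltransferase. The members are all 9 libraries of the series: 3 with shSCR, 3 with the hairpin shG9a_1 and 3 with the hairpin shG9a_4, with both EHMT2 hairpins weighted equally and the replicate number of the label (1 to 3) kept as a block. Every library, the shSCR ones included, came from cells with ectopic MYC (pBABE-hygro-MYC) and a mutant PI3K catalytic subunit (pMN-IRES-GFP-PI3KH1047R), and its hairpin, in a pLKO-tetON-puro vector, was induced for 72 hours with 2 µg/mL doxycycline. The culture medium held horse serum, EGF, insulin, hydrocortisone and cholera toxin. The design text calls the replicates biological. The labels do not say whether the transduced lines were pools or clones. All control libraries carry a single scrambled hairpin and received the same doxycycline, so a change that this hairpin makes and a change shared by both EHMT2 hairpins cannot be told apart.

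G9a, with its partner GLP (gene EHMT1) and the zinc finger proteins WIZ and ZNF644, places mono- and dimethyl marks on lysine 9 of histone H3, marks that are found on silenced genes. Loss of a repressor of this kind can raise the genes it holds down, while genes downstream may move either way. The series title joins G9a to repression by MYC, a transcription factor that with MAX binds the E-box CACGTG. Pooling the hairpins asks which transcripts changed in the mean of both.

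Reads in genes numbered 53065611 to 76958831 per library, and 26759 to 28346 genes had at least 1 read. The 10 epithelial markers examined were all measured and summed to 4450 to 6233 CPM (reads of a gene relative to the TMM-scaled library size) in shSCR and 4514 to 7334 CPM with knockdown. The endothelial markers summed to at most 3.00 CPM in any library, CLDN5 having no read and CDH5 and VWF a mean under 0.1 CPM. The leukocyte markers summed to 5.01 to 10.5 CPM in shSCR and 5.27 to 19.04 CPM with knockdown, nearly all CD14 and CD74 (up to 12.6 CPM), with PTPRC under 0.1 CPM. The neuronal markers summed to 33.01 to 90.98 CPM in shSCR and 31.6 to 127.7 CPM with knockdown, mostly MAP2 (means of 50.4 and 59.97 CPM), while RBFOX3 and STMN2 had a read in few libraries. The fibroblast markers summed to 192 to 376 CPM in shSCR and 175 to 470 CPM with knockdown, mostly DCN. Means in shSCR and with knockdown were 19.6 and 26.3 CPM for FAP and 12.4 and 15.3 CPM for PDPN. They were 4.99 and 5.71 CPM for LUM and 1.27 and 1.38 CPM for COL1A1. COL1A2, COL3A1, PDGFRA, PDGFRB, THY1 and POSTN were under 1 CPM in every library. The shG9a_4 library of replicate number 2 stood farthest from its group, with a chi-square per degree of freedom of 59.1 and 78.9 against the other two shG9a_4 libraries, where pairs within the other groups gave 25.2 to 37.9. The main counts are therefore also given without it. In bulk RNA, fewer cells of a kind and less RNA per cell cannot be told apart.

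EHMT2 (ENSG00000204371.11), which both hairpins target, fell: its libraries held 51.1, 45.2 and 45.4 CPM with shSCR, 17.6, 22.6 and 21.03 with shG9a_1, and 32.1, 27.2 and 33.5 with shG9a_4. The 6 knockdown libraries all lay below the 3 shSCR libraries, and those of shG9a_1 below those of shG9a_4. The means were 47.3 ± 3.35 CPM in shSCR (SD, n = 3) and 25.7 ± 6.35 CPM with knockdown (SD, n = 6). The pooled log2 fold change, the quantity tested throughout, was −0.91 ± 0.091 (± SE of the fit; edgeR quasi-likelihood test, adjusted p = 0.00217), made of −1.21 with shG9a_1 and −0.61 with shG9a_4. Against shSCR in the same fit, shG9a_1 had an adjusted p of 0.00192 and shG9a_4 one of 0.0907, so shG9a_4 alone did not pass. The hairpins differed by 0.60 ± 0.11 on the log2 scale, with an unadjusted p of 0.00019 and an adjusted p of 0.203 over all genes. In a fit with a single term for both hairpins the EHMT2 value was −0.88 with an adjusted p of 0.106.

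The transcripts of G9a's partners did not pass the test. EHMT1 stood at 45.3 ± 1.53 CPM in shSCR (SD, n = 3) and 44.2 ± 4.01 CPM with knockdown (SD, n = 6), a log2 fold change of −0.035 ± 0.079. WIZ stood at 13.6 ± 1.13 CPM in shSCR (SD, n = 3) and 14.1 ± 3 CPM with knockdown (SD, n = 6), a change of 0.042 ± 0.15. ZNF644 had 157, 159.7 and 139 CPM with shSCR, 157, 144 and 135 with shG9a_1, and 127, 141 and 111 with shG9a_4, overlapping ranges with a change of −0.17 ± 0.054 and an adjusted p of 0.326. MYC, whose counts join the endogenous gene and the ectopic copy, was at 186 ± 17.8 CPM in shSCR (SD, n = 3) and 182 ± 25.2 CPM with knockdown (SD, n = 6), a change of −0.033 ± 0.067 with an adjusted p of 0.935. The sign of the small EHMT1, WIZ and MYC values turned with single libraries: without shG9a_4 replicate 2, EHMT1 was 0.027 and MYC 0.018, and without shG9a_1 replicate 2, WIZ was −0.11. The ZNF644 value kept its sign, from −0.20 to −0.13 over 22 alternative fits. The 6 tested genes next to EHMT2 in RefSeq order (HSPA1B, SNHG32, NEU1, C2, ZBTB12 and CFB) had an adjusted p of 0.525 or more, the lowest being that of NEU1 (log2 fold change 0.12).

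**Figure D1:**
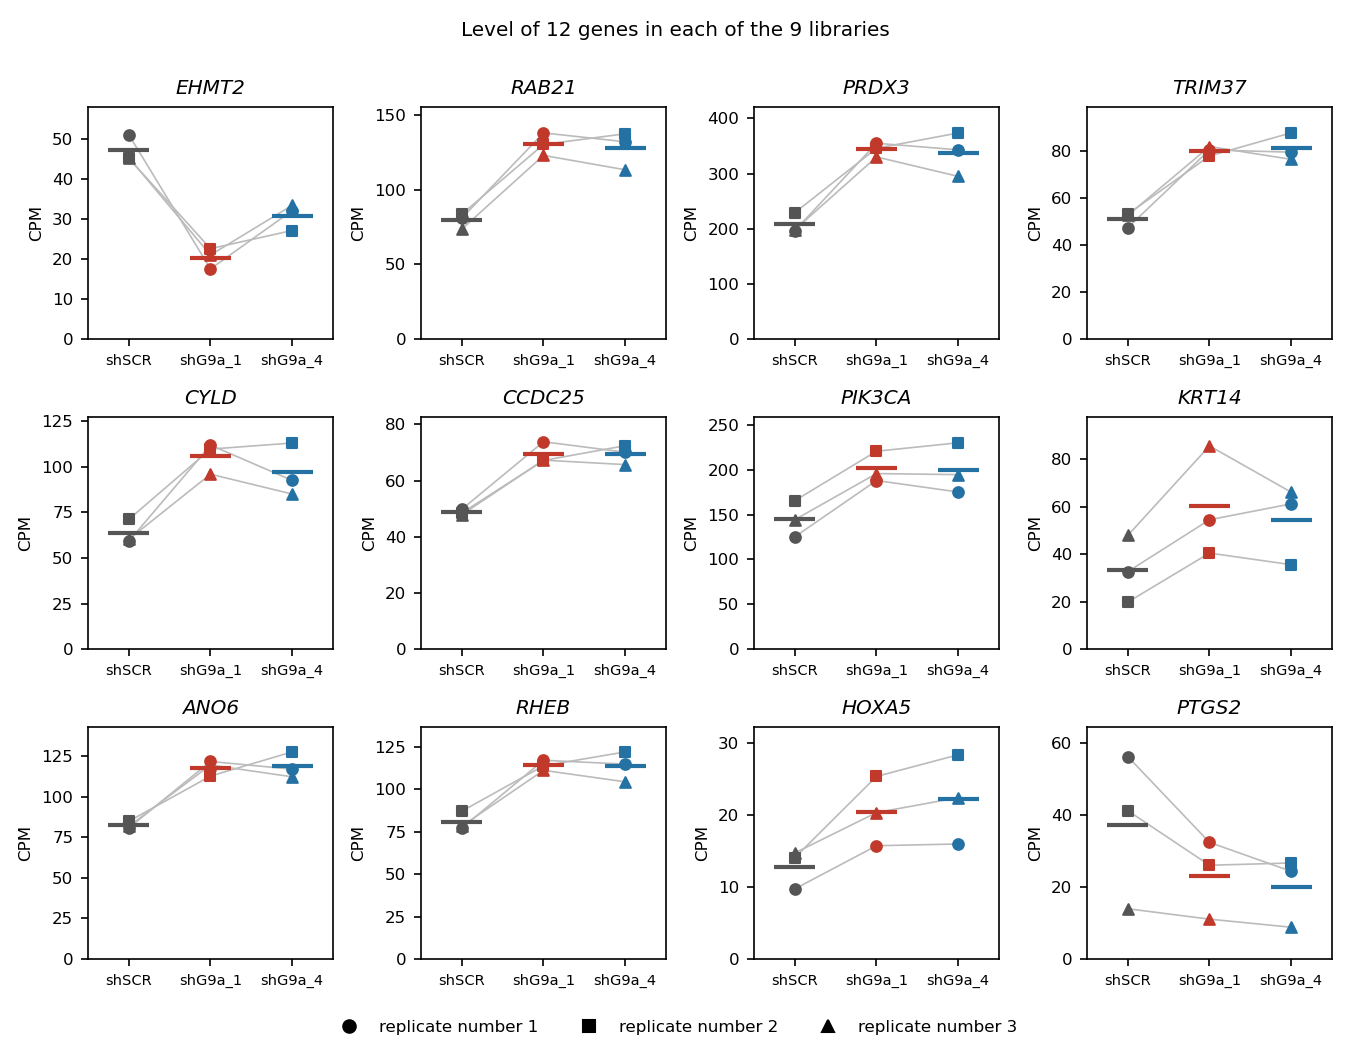
Level (CPM, linear axis from 0) of 12 genes in each library by hairpin, with marker shape giving the replicate number, gray lines joining libraries of the same number and bars the group means. EHMT2 and PTGS2 are lower in every knockdown library than in the shSCR library of the same number, and the other 10 are higher.

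Of 18435 genes tested, 34 passed an adjusted p of 0.05 (0.184%), of which 30 rose (0.163%) and 4 fell (0.0217%). The 30 were led by RAB21, PRDX3, TRIM37 and CYLD, and the 4 were EHMT2, PTGS2, MEST and a long noncoding RNA. The changes were small: the absolute log2 fold change ran from 0.31 to 1.20, with a median of 0.47, and 12 of the 34 reached a fold of 1.5. In all 34, each of the 6 knockdown libraries lay on the same side of the shSCR library of its own number. The share of all genes tested for which this held was not counted. In 25 the ranges of the 6 knockdown and the 3 shSCR libraries did not overlap, beside 475 genes (2.58%) among all those tested. Since the same libraries, blocked on the replicate number, chose the 34, nothing is read from either count. Without an adjustment, 1762 genes had a p under 0.05 (9.56%), 1096 of them higher (5.95%) and 666 lower (3.61%).

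The number that passed depended on the libraries and on the fit. Without the replicate block 9 genes passed, 8 higher and 1 lower, namely EHMT2, RAB21, PRDX3, TRIM37, CCDC25, ANO6, RHEB, MFAP3 and TENT4B. It was 6, 11 and 10 without shSCR replicate 1, 2 or 3, 30, 57 and 13 without shG9a_1 replicate 1, 2 or 3, and 15, 83 and 16 without shG9a_4 replicate 1, 2 or 3. DESeq2 called 189 genes, 33 of the 34 among them. In each of these and the other alternatives all 34 kept their direction. All the fits use the libraries that chose the 34, or part of them, so nothing is read from that.

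**Figure D2:**
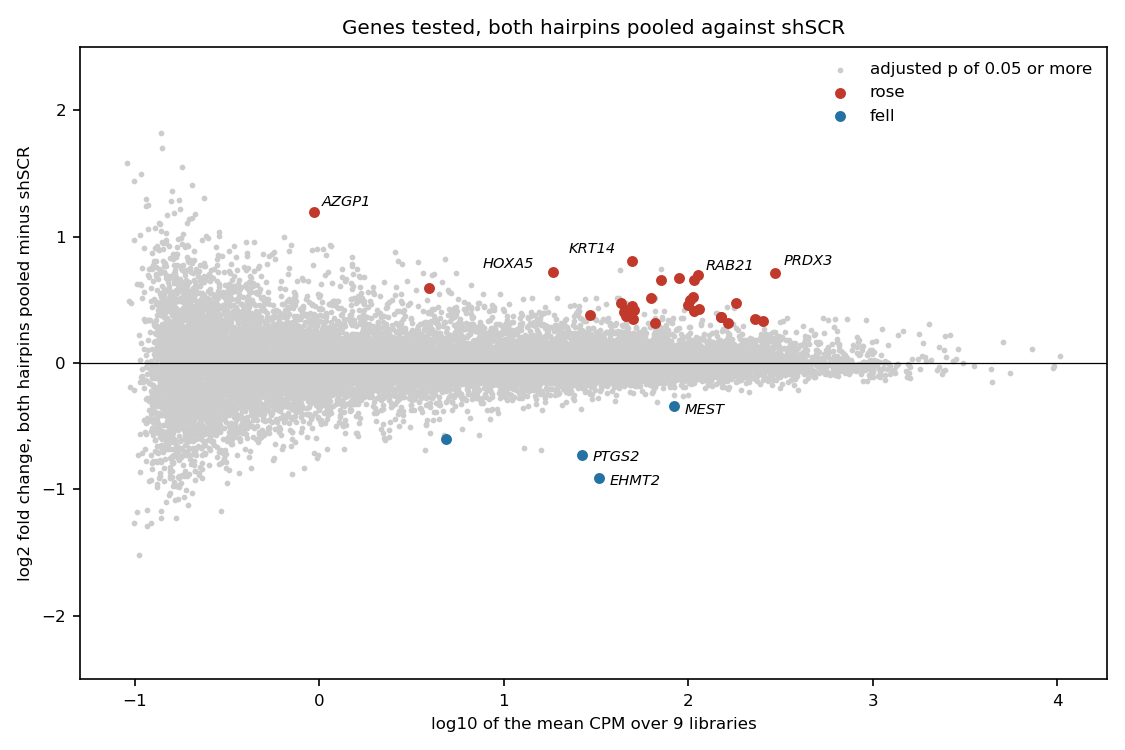
Log2 fold change of both hairpins pooled against shSCR (vertical) by log10 of the mean CPM over 9 libraries (horizontal) for 18435 genes, with genes past the threshold in color. The 30 that rose (red) and the 4 that fell (blue) lie mostly to the right of 1 on the horizontal axis, where the gray cloud is narrow.

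Of the 34, 31 had a mean of 10 to 300 CPM. Of 2368 tested genes with a mean of 100 CPM or more, 14 rose and 0 fell, and of 6743 genes between 10 and 100 CPM 14 rose and 3 fell. Of 3893 genes between 1 and 10 CPM 1 rose (LINC01127) and 1 fell (ENSG00000270103.3), and of 5431 genes under 1 CPM 1 rose (AZGP1) and 0 fell. The SE of the fitted change narrowed over the same bins, from a median of 0.292 under 1 CPM to 0.130 (1 to 10 CPM), 0.067 (10 to 100 CPM) and 0.054 at 100 CPM or more. Of the 34, 32 were protein-coding, where 70.9% of the genes tested were, and the other two were long intergenic noncoding RNAs.

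The genes that rose with the smallest p were of varied function. RAB21 (ENSG00000080371.5), a small GTPase of early endosomes that moves integrins, had 81.1, 83.7 and 73.7 CPM with shSCR, 138, 130.4 and 123 with shG9a_1, and 132, 138 and 113 with shG9a_4. Every knockdown library exceeded every shSCR library. RAB21 rose by 0.70 ± 0.051 on the log2 scale, or 1.62-fold (adjusted p = 0.000447), with 0.72 with shG9a_1 and 0.68 with shG9a_4. It passed in 21 of 22 alternative fits, failing only where all libraries of replicate number 3 were left out.

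PRDX3 (ENSG00000165672.6), a peroxidase of the mitochondrial matrix that uses thioredoxin, had 197, 229 and 198 CPM with shSCR, 355, 346 and 330.1 with shG9a_1, and 343, 373 and 295 with shG9a_4. The lowest knockdown library, of replicate number 3, was still above the highest shSCR library. It rose by 0.71 ± 0.061, or 1.64-fold (adjusted p = 0.00107). TRIM37 (ENSG00000108395.13), a ubiquitin ligase that limits centriole assembly, had 47.4, 53.2 and 52.7 CPM with shSCR, 80.5, 77.9 and 81.95 with shG9a_1, and 79.6, 87.8 and 76.5 with shG9a_4, with no overlap. It rose by 0.66 ± 0.060 (adjusted p = 0.00136), with 0.65 with shG9a_1 and 0.67 with shG9a_4. CYLD (ENSG00000083799.17), a deubiquitinase that takes linear and lysine 63 chains off NF-kB signalling complexes, had 59.2, 71.2 and 60.3 CPM with shSCR, 112, 109.8 and 96.02 with shG9a_1, and 92.6, 113 and 85.1 with shG9a_4. These groups did not overlap either, and CYLD rose by 0.67 ± 0.064 (adjusted p = 0.00159). Without the replicate block its adjusted p was 0.0612. PRDX3 has near-identical copies elsewhere in the genome, so its count is uncertain.

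The promoters of the genes above can be set beside the motif that MYC binds. RefSeq promoters (GRCh38.p14; 250 bases before to 50 after the start) were matched for 26 of the 34 genes by symbol. CACGTG, which reads the same on both strands, was found in 3 of these 26 (11.5%), against 9.90% of 11617 matched promoters of the genes tested and 7.43% of all 27305. The share was near the background, but 26 promoters are too few to show a moderate difference. No test was run, so nothing is read from it. The 3 that hold it were RAB21, PRDX3 and EHMT2 itself, and the 250 bases before each start are shown with the motif in capitals. They lie at chr12:71754613-71754862 (plus strand) for RAB21, chr10:119178813-119179062 (minus strand) for PRDX3 and chr6:31897699-31897948 (minus strand) for EHMT2.
RAB21: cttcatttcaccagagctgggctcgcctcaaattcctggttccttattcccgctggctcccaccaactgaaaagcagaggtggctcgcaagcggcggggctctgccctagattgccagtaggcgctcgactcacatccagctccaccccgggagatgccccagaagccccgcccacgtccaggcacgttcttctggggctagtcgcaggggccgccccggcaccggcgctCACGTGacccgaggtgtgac
PRDX3: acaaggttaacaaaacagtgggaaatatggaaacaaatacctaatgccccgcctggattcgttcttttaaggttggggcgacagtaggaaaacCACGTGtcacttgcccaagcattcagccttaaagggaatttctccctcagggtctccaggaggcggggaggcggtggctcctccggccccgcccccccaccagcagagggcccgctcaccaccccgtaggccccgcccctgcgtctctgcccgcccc
EHMT2: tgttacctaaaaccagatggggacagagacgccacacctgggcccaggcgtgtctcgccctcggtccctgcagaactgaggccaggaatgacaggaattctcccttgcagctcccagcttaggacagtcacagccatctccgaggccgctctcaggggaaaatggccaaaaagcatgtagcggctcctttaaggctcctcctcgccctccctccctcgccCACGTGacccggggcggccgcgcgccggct
The motif begins 20 bases before the start in RAB21, 157 in PRDX3 and 30 in EHMT2. RAB21 and PRDX3 rose and EHMT2 is the hairpins' target. Whether MYC or G9a was bound there was not measured.

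Among the genes that rose were PIK3CA, RHEB, STAT3, FZD6 and SIPA1L2. PIK3CA (ENSG00000121879.3), the catalytic subunit p110-alpha of PI3K, had 125, 165 and 144 CPM with shSCR, 188, 221 and 196 with shG9a_1, and 175, 230.0 and 194 with shG9a_4. The libraries of replicate number 2 were highest in each group, and the ranges did not overlap. PIK3CA rose by 0.47 ± 0.050 (adjusted p = 0.00261), but its adjusted p was 0.507 without the block, and its reads may come from the gene or from the ectopic mutant copy. RHEB, the GTPase that switches on mTORC1, ranged from 77.1 to 87.01 CPM in shSCR and 104 to 122 CPM in the knockdown libraries. It rose by 0.49 ± 0.054 (adjusted p = 0.00274), and passed without the block too (adjusted p = 0.0289). STAT3, a transcription factor downstream of cytokine receptors, had 204, 183 and 199.7 CPM with shSCR, 249.7, 248 and 249 with shG9a_1, and 249, 255 and 244 with shG9a_4. Its 6 knockdown libraries were close together and above all shSCR libraries, a rise of 0.35 ± 0.051 (adjusted p = 0.0234). FZD6, a Wnt receptor, had 123 to 128 CPM in shSCR and 149 to 179 CPM in the knockdown libraries and rose by 0.37 ± 0.059 (adjusted p = 0.0354). SIPA1L2, of a family that turns off Rap GTPases, had overlapping ranges of 195 to 238 CPM in shSCR and 214 to 325 CPM in the knockdown libraries and rose by 0.34 ± 0.052 (adjusted p = 0.0305; 0.939 without the block).

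Of the fixed list of 46 measured mTORC1 and PI3K genes, PIK3CA and RHEB were the 2 that passed, both higher. In the fit 28 of the 46 were on the higher side and 18 on the lower, and the median log2 fold change was 0.024, close to 0.00015 over all genes. EIF4EBP1, the repressor of cap-dependent translation that mTORC1 phosphorylates, stood at 45.7 CPM in shSCR and 38.2 CPM with knockdown (−0.25 ± 0.091, adjusted p = 0.375). PIK3CA and RHEB have partial or whole copies elsewhere in the genome, so their counts are uncertain.

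ANO6, CLCA2, SOAT1, AGPAT1, CPOX and ALOX15B rose as well; they are set together by their known roles, after their values were seen. ANO6, a calcium-gated scramblase that exposes phosphatidylserine, had 80.7 to 84.9 CPM in shSCR and 112 to 128 CPM in the knockdown libraries, without overlap, and rose by 0.52 ± 0.056 (adjusted p = 0.00261). CLCA2, a regulator of chloride currents found in basal breast epithelium, had 74.2, 74.5 and 85.1 CPM with shSCR, 136, 116 and 107 with shG9a_1, and 125, 149 and 107 with shG9a_4. It rose by 0.65 ± 0.10 (adjusted p = 0.0305), with every knockdown library above every shSCR library. SOAT1, which esterifies cholesterol in the endoplasmic reticulum, had 122 to 130.3 CPM in shSCR and 148 to 176 CPM in the knockdown libraries (0.36 ± 0.054, adjusted p = 0.0261). AGPAT1, which makes phosphatidic acid, had 23.1 to 25.6 CPM in shSCR and 30.5 to 36.1 CPM in the knockdown libraries (0.38 ± 0.062, adjusted p = 0.0446). CPOX, an enzyme of heme synthesis, had 37.1 to 43.7 CPM in shSCR and 52.2 to 58.9 CPM in the knockdown libraries (0.45 ± 0.065, adjusted p = 0.0227). These ranges stood apart. ALOX15B, a lipoxygenase of arachidonic acid, had overlapping ranges of 26.4 to 40.3 CPM in shSCR and 33.6 to 58.9 CPM in the knockdown libraries. It passed with the block (0.47 ± 0.062, adjusted p = 0.0114) and had an adjusted p of 0.999 without it.

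KRT14 (ENSG00000186847.5), the keratin that pairs with KRT5 in basal cells, had 32.6, 19.8 and 47.9 CPM with shSCR, 54.5, 40.4 and 85.6 with shG9a_1, and 61.2, 35.5 and 66.1 with shG9a_4. Levels varied widely with the replicate number and the ranges overlapped. Within each number both knockdown libraries were higher than shSCR. The blocked fit chose the gene on these differences, so nothing is read from that order. KRT14 rose by 0.81 ± 0.087, or 1.75-fold (adjusted p = 0.00261). Without the block its adjusted p was 0.999, with an SE 3.52 times as wide. Among 29 measured basal and myoepithelial genes it was the 1 that passed in edgeR, while DESeq2 called 3, all higher. Of the list 26 were on the higher side, 17 of them with an unadjusted p under 0.05 and 2 on the lower side, and the median was 0.22. KRT16, a stress keratin, stood at 51.1 CPM in shSCR and 74.1 CPM with knockdown (0.52 ± 0.11, adjusted p = 0.132), and COL17A1, a collagen of hemidesmosomes, at 89.5 CPM in shSCR and 116 CPM with knockdown (0.38 ± 0.087, adjusted p = 0.132). KRT14 shares sequence with KRT16 and KRT17, so its count is uncertain.

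HOXA5, TFCP2L1, ASF1A and TENT4B also rose. HOXA5 (ENSG00000106004.4), a homeobox transcription factor, had 9.73, 14.1 and 14.7 CPM with shSCR, 15.7, 25.3 and 20.3 with shG9a_1, and 15.96, 28.3 and 22.4 with shG9a_4. Its knockdown libraries all exceeded the shSCR libraries, the nearest pair being 15.7 and 14.7 CPM, from different replicate numbers. HOXA5 rose by 0.72 ± 0.085 (adjusted p = 0.00496; 0.855 without the block). It was the 1 of 20 measured HOX genes to pass, while 14 of the 20 were on the lower side, with a list median of −0.11. TFCP2L1, a transcription factor of epithelia, had overlapping ranges of 117 to 169 CPM in shSCR and 139 to 206 CPM in the knockdown libraries (0.31 ± 0.051, adjusted p = 0.0365; 0.999 without the block). ASF1A, a chaperone of histones H3 and H4, had 34.96 to 40.9 CPM in shSCR and 44.8 to 53 CPM in the knockdown libraries (0.40 ± 0.059, adjusted p = 0.0244). TENT4B, a poly(A) polymerase of noncoding RNA, had 36.5 to 37.6 CPM in shSCR and 47.2 to 53.9 CPM in the knockdown libraries and rose by 0.42 ± 0.057 (adjusted p = 0.0147; 0.046 without the block).

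The other genes that rose are given so that all 34 are accounted for; those outside the rule for named genes, AZGP1 and the noncoding RNA without a symbol among them, were chosen for that after their values were seen. CCDC25, a membrane receptor of extracellular DNA, had 47.9 to 49.8 CPM in shSCR and 65.7 to 73.8 CPM in the knockdown libraries and rose by 0.51 ± 0.053 (adjusted p = 0.0026). MFAP3, a microfibril-associated protein, rose by 0.46 ± 0.059 (adjusted p = 0.0104) from 75.98 to 83.3 CPM to 106 to 119 CPM. ABI2, a subunit of the actin-regulating WAVE complex, had 41.5 to 43.7 CPM in shSCR and 51.6 to 56.8 CPM in the knockdown libraries (0.35 ± 0.051, adjusted p = 0.0227). NHLRC2 had 55.4 to 57.9 CPM in shSCR and 66.8 to 73.8 CPM in the knockdown libraries (0.32 ± 0.049, adjusted p = 0.0305) and HSPA13, a chaperone of the Hsp70 family, 77.1 to 94.4 CPM in shSCR and 96.4 to 138 CPM in the knockdown libraries (0.41 ± 0.066, adjusted p = 0.0365). None of these 5 overlapped between groups.

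The ranges overlapped in the next 4. C5orf15 had 77.6 to 103 CPM in shSCR and 99.2 to 155 CPM in the knockdown libraries (0.43 ± 0.061, adjusted p = 0.0227). NEBL, an actin-binding protein, had 34.2 to 40.5 CPM in shSCR and 39.3 to 58.4 CPM in the knockdown libraries (0.37 ± 0.062, adjusted p = 0.0463). VSIR, the immune checkpoint protein VISTA, had 28.5 to 48.1 CPM in shSCR and 36.5 to 81.03 CPM in the knockdown libraries (0.42 ± 0.070, adjusted p = 0.0463). LINC01127, a long noncoding RNA, had 2.01 to 3.86 CPM in shSCR and 2.93 to 5.8 CPM in the knockdown libraries (0.59 ± 0.10, adjusted p = 0.0486). Without the block the adjusted p of each was 0.939 or more. AZGP1, a secreted zinc-binding glycoprotein, had the highest fold of the 34 at 2.29 but a low level, with 0.278, 0.65 and 0.577 CPM with shSCR, 1.08, 1.67 and 1.26 with shG9a_1, and 0.71, 1.17 and 0.989 with shG9a_4. It did not overlap (1.20 ± 0.18, adjusted p = 0.0305).

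Of the genes that fell besides EHMT2, PTGS2 (ENSG00000073756.11), the inducible cyclooxygenase that starts prostaglandin synthesis, had 56.1, 41.1 and 13.95 CPM with shSCR, 32.4, 26.02 and 11.1 with shG9a_1, and 24.3, 26.6 and 8.83 with shG9a_4. The ranges overlapped widely because the libraries of replicate number 3 were low in every group. Each knockdown library was under the shSCR library of its number, from which, as for KRT14, nothing is read. PTGS2 fell by 0.72 ± 0.10 on the log2 scale (adjusted p = 0.0146). Without the block the adjusted p was 0.999 and the SE 4.54 times as wide. MEST (ENSG00000106484.14), an imprinted gene expressed from the paternal copy, had 103, 96.3 and 91.2 CPM with shSCR, 78.2, 61.7 and 68.6 with shG9a_1, and 91.1, 81.98 and 82.5 with shG9a_4. The highest knockdown library (91.1 CPM) was just under the lowest shSCR library (91.2 CPM). MEST fell by 0.34 ± 0.053 (adjusted p = 0.0354), and it was the 1 of 26 measured imprinted genes to pass, in a list with 14 on the higher side and a median of 0.026. The noncoding RNA ENSG00000270103.3 had 5.21 to 6.9 CPM in shSCR and 3.51 to 4.75 CPM in the knockdown libraries and fell by 0.60 ± 0.093 (adjusted p = 0.0305).

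**Figure D3:**
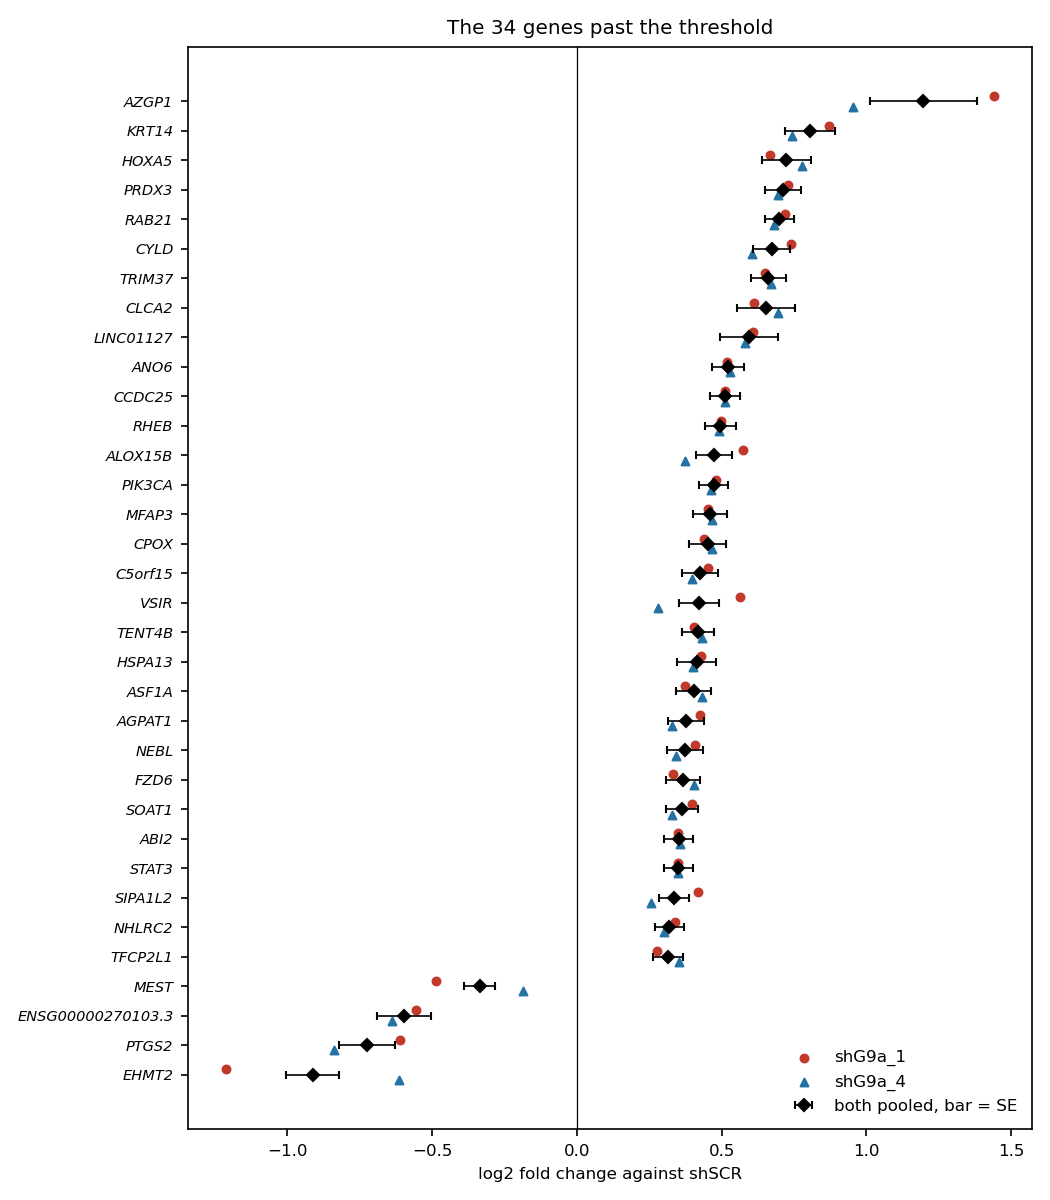
Log2 fold change against shSCR (horizontal) of the 34 genes past the threshold, for shG9a_1 (circles), shG9a_4 (triangles) and both pooled (diamonds, bars ± SE). Each gene's circle and triangle lie on the same side of 0, and EHMT2 and AZGP1 have the widest gaps between them.

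Each hairpin's values can be set side by side, with the reservation that both use the same shSCR libraries; their direct difference does not. In the fit of all 9 libraries, 143 genes passed for shG9a_1 against shSCR and 14 for shG9a_4. Without shG9a_4 replicate 2 these were 549 and 11, and leaving out each library in turn gave 4 to 549 for shG9a_1 and 1 to 26 for shG9a_4. Between shG9a_4 and shG9a_1, edgeR called 0 of 18435 genes, while 1619 had an unadjusted p under 0.05 (8.78%); DESeq2 called 95 and the likelihood ratio test 114. Of the 34 genes 6 had an unadjusted p under 0.05 in this difference and 0 an adjusted one. These were EHMT2, MEST, VSIR, ALOX15B, SIPA1L2 and AZGP1. MEST changed by −0.49 with shG9a_1 and −0.19 with shG9a_4, a difference of 0.30 ± 0.063 (unadjusted p = 0.00056, adjusted p = 0.262). VSIR changed by 0.56 with shG9a_1 and 0.28 with shG9a_4, a difference of −0.28 ± 0.080 (unadjusted p = 0.0046, adjusted p = 0.345). With shG9a_4 against shSCR, the adjusted p was 0.754 for MEST and 0.563 for VSIR. Among the 34, chosen on the pooled contrast, 32 passed with shG9a_1 against shSCR and 13 with shG9a_4.

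The genes with the smallest p were close between hairpins. The difference, shG9a_4 minus shG9a_1, was −0.035 ± 0.058 in RAB21, −0.034 ± 0.068 in PRDX3 and 0.019 ± 0.067 in TRIM37. It was 0.010 ± 0.063 in ANO6 and −0.0063 ± 0.061 in RHEB, and −0.14 ± 0.071 in CYLD. For EHMT2, by comparison, it was 0.60 ± 0.11. The median absolute difference was 0.062 over the 34 genes and 0.10 over all genes tested. Since the 34 were chosen on the mean of both hairpins, and lie at levels where the SE is narrower, nothing is read from that contrast.

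The fixed lists of pathway genes, chosen with earlier results of these data known, set related genes beside the 34. The 35 lists held 1108 measured genes, of which 10 passed in edgeR, in 9 of the lists. All 10 are among the 34 that passed of 18435 genes tested (0.184%). DESeq2 called 38 list members, beside 189 over all genes, and the likelihood ratio test 39, beside 212. Given how the lists were chosen, nothing is read from these counts. Without shG9a_4 replicate 2, 19 passed, among them 3 basal and 3 RAB genes, 2 redox genes, 2 higher NF-kB targets, and 1 each of the MYC-repressed, luminal and hypoxia lists, while the counts of the other lists did not change. Over all genes tested 50.07% were on the higher side, 5.95% had an unadjusted p under 0.05 and were higher, and 3.61% had one and were lower. The lists' medians ran from −0.14 to 0.46. The highest was that of the endothelial markers, with 2 members measured, both at a low level, and the next was 0.25, of the fibroblast markers. The sign of the median held in all 22 alternatives in 25 of the 35 lists.

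**Figure D4:**
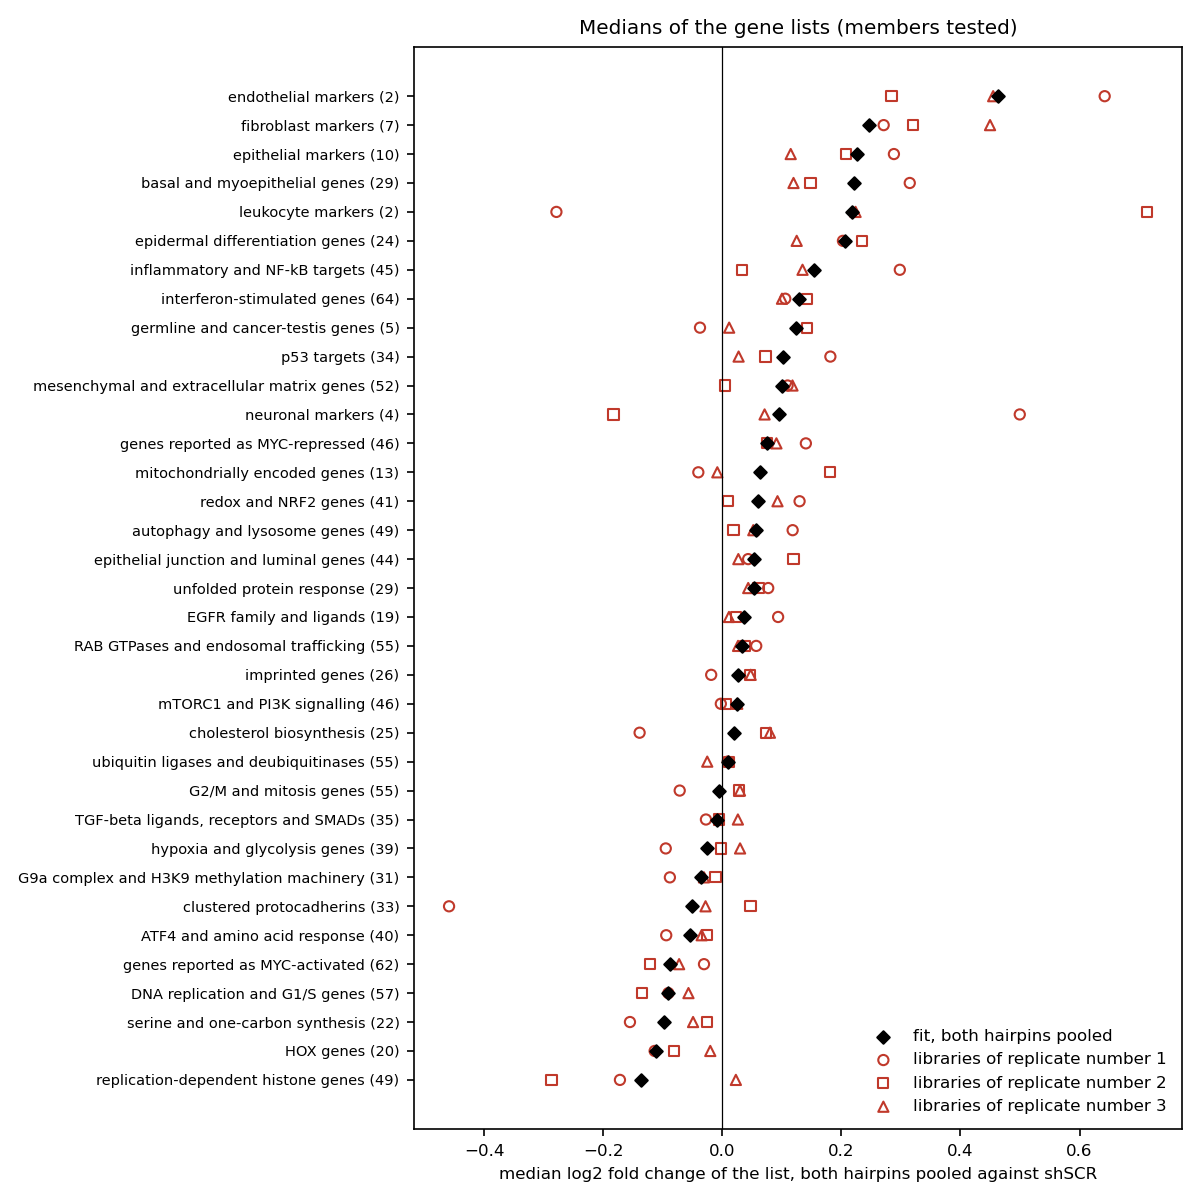
Median log2 fold change (horizontal) of each gene list, with the number of its members tested in brackets, from the fit (diamonds) and within the libraries of each replicate number (open symbols). The diamonds of histone, HOX and DNA replication genes lie left of 0 and those of basal, epidermal and interferon genes right of 0. The histone symbol of number 3 (0.023) lies on the other side. Symbols scatter widely in the leukocyte, neuronal and endothelial markers, and also in the 33 clustered protocadherins (−0.46, 0.047 and −0.028 for numbers 1, 2 and 3).

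Among the 31 measured genes of the G9a complex and the H3K9 methylation machinery, EHMT2 not counted, 0 passed in edgeR or DESeq2, and 23 were on the lower side, 3 with an unadjusted p under 0.05. These were the demethylases KDM3A (30.2 CPM in shSCR and 26.03 CPM with knockdown, −0.21 ± 0.068, adjusted p = 0.305) and KDM3B (−0.12 ± 0.051, adjusted p = 0.469), and ZNF644. The median of the list was −0.035.

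Genes reported as MYC-repressed numbered 46 measured, of which 0 passed. On the higher side were 33, with 11 at an unadjusted p under 0.05 and 0 among the lower ones. The median was 0.076 (0.13 for shG9a_1 and 0.037 for shG9a_4). TIMP2, a metalloproteinase inhibitor, stood at 25.4 CPM in shSCR and 30.7 CPM with knockdown (0.27 ± 0.064, adjusted p = 0.155). JUN, a subunit of AP-1, stood at 15.3 CPM in shSCR and 20.3 CPM with knockdown (0.38 ± 0.094, adjusted p = 0.17), and DUSP1, a MAP kinase phosphatase, had an adjusted p of 0.222. DESeq2 called 2 members, both higher. Of 62 genes reported as MYC-activated, 55 were on the lower side, 11 with an unadjusted p under 0.05, and the median was −0.088. Again 0 passed, PA2G4 (−0.15 ± 0.050, adjusted p = 0.337) and POLR1C (−0.16 ± 0.055, adjusted p = 0.341) having the smallest p on the lower side. CCND2, a D-type cyclin of this list, was higher instead (0.28 ± 0.073, adjusted p = 0.195), and DESeq2 called 1 member, on the higher side.

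Cell cycle lists lay near or under 0, and 0 of their members passed in edgeR. Of 57 DNA replication and G1/S genes, 56 were on the lower side, 12 with an unadjusted p under 0.05, with a median of −0.091. The exception was PCNA, the sliding clamp of DNA polymerase, at 254 CPM in shSCR and 289.7 CPM with knockdown (0.19 ± 0.057, adjusted p = 0.276). CDC25A, the phosphatase that activates CDK2, stood at 105 CPM in shSCR and 91.9 CPM with knockdown (−0.19 ± 0.058, adjusted p = 0.284). Of 49 replication-dependent histone genes 46 were on the lower side, 7 with an unadjusted p under 0.05, and the median was −0.14. H1-1 had the smallest p (−0.31 ± 0.057, adjusted p = 0.0751), and DESeq2 called 2 members, both lower. The histone median was −0.17 and −0.29 in libraries of replicate numbers 1 and 2 and 0.023 in those of number 3. G2/M and mitosis genes, 55 measured, were split at 21 higher and 34 lower, with a median of −0.0058 and 1 at an unadjusted p under 0.05, NUF2 of the kinetochore (0.19 ± 0.054, adjusted p = 0.26).

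Defence and inflammation genes lay above 0. Of 64 interferon-stimulated genes 52 were on the higher side, 24 with an unadjusted p under 0.05 and 0 among the lower ones. The median was 0.13 (0.20 for shG9a_1 and 0.077 for shG9a_4), but 0 passed. GBP3, a guanylate-binding GTPase, stood at 28.9 CPM in shSCR and 39.6 CPM with knockdown (0.47 ± 0.093, adjusted p = 0.0934), PSMB8, a subunit of the immunoproteasome, at 44.3 CPM in shSCR and 52.1 CPM with knockdown (0.23 ± 0.053, adjusted p = 0.132), and DESeq2 called 2 members. Of 45 inflammatory and NF-kB targets 37 were on the higher side and 2 passed in opposite directions, CYLD rising and PTGS2 falling. Another 12 had an unadjusted p under 0.05 and were higher, 1 was lower, and DESeq2 called 6 higher and 1 lower. Among the 12 was SAA1, an acute-phase protein (782 CPM in shSCR and 997 CPM with knockdown; 0.34 ± 0.065, adjusted p = 0.0783). Medians of this list were 0.33 for shG9a_1 and 0.028 for shG9a_4. Of 34 p53 targets 27 were on the higher side, 10 with an unadjusted p under 0.05. Their median was 0.10 (0.13 for shG9a_1 and 0.052 for shG9a_4). TP53I3 had the smallest p (0.36 ± 0.080, adjusted p = 0.129), with 0.57 with shG9a_1 and 0.16 with shG9a_4. Of the p53 targets 0 passed and DESeq2 called 1.

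Differentiation and matrix lists leaned the same way. Of 24 epidermal differentiation genes 19 were on the higher side, 9 with an unadjusted p under 0.05. Their median was 0.21 (0.30 for shG9a_1 and 0.089 for shG9a_4). DSG3, a desmosomal cadherin, stood at 79.4 CPM in shSCR and 103 CPM with knockdown (0.42 ± 0.10, adjusted p = 0.151). Of 52 mesenchymal and extracellular matrix genes 37 were higher, 13 at an unadjusted p under 0.05, with a median of 0.10, TNC (tenascin C) having 0.42 ± 0.10 (adjusted p = 0.161). The median of this list was 0.18 for shG9a_1 and 0.0092 for shG9a_4, and 0.0042 in libraries of replicate number 2. Of 44 epithelial junction and luminal genes 29 were higher, with a median of 0.054; PROM2 stood at 3.38 CPM in shSCR and 5.22 CPM with knockdown (0.64 ± 0.12, adjusted p = 0.0783). In these lists 0 members passed, while DESeq2 called 1, 2 and 1. Of the 10 epithelial markers 9 were higher, KRT14 passed and the median was 0.23. The fibroblast markers, 7 of 11 measured, were all higher, at a median of 0.25 (0.41 for shG9a_1 and 0.12 for shG9a_4). Among them FAP had 0.46 ± 0.11 (adjusted p = 0.18). The part of fibroblast-like transcripts in the values of the matrix list was not tested. Of endothelial, leukocyte and neuronal markers 2, 2 and 4 were measured, and 0 passed in edgeR or DESeq2, with 1, 0 and 0 at an unadjusted p under 0.05. Their medians were 0.46, 0.22 and 0.095.

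Metabolic and stress lists split. Of 22 genes of serine and one-carbon synthesis 18 were on the lower side, 5 with an unadjusted p under 0.05, at a median of −0.10. PSAT1, the aminotransferase of serine synthesis, stood at 172 CPM in shSCR and 149.9 CPM with knockdown (−0.19 ± 0.062, adjusted p = 0.326), whereas MTHFD2L, a mitochondrial folate enzyme, was higher (0.25 ± 0.056, adjusted p = 0.132). Of 40 ATF4 and amino acid response genes 33 were lower, 5 with an unadjusted p under 0.05, at a median of −0.054, with ASNS, asparagine synthetase, at 56.3 CPM in shSCR and 47.6 CPM with knockdown (−0.24 ± 0.063, adjusted p = 0.208) and ATF4 itself at −0.17 ± 0.054 (adjusted p = 0.301). Of 41 redox and NRF2 genes 34 were higher, 12 with an unadjusted p under 0.05, at a median of 0.060; PRDX3 passed, and HMOX1, heme oxygenase 1, stood at 26.5 CPM in shSCR and 50.5 CPM with knockdown (0.74 ± 0.14, adjusted p = 0.0774). HMOX1 changed by 1.22 with shG9a_1 and 0.25 with shG9a_4 (difference −0.97 ± 0.15, unadjusted p = 5.4e-05, adjusted p = 0.124), and its lowest knockdown library, shG9a_4 replicate 2 at 13.9 CPM, was below every shSCR library. The redox median was 0.12 for shG9a_1 and 0.020 for shG9a_4. Of 49 autophagy and lysosome genes 41 were higher, 9 with an unadjusted p under 0.05, at a median of 0.057, and of 29 unfolded protein response genes 22 were higher, 5 with one, at a median of 0.053. Apart from PRDX3, 0 members of these 5 lists passed; DESeq2 called 6 redox genes and 1 of serine synthesis.

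RAB21 was the 1 of 55 RAB and endosomal trafficking genes to pass in edgeR, with a median of 0.033, while DESeq2 called 3, all higher. RAB27B (0.32 ± 0.055, adjusted p = 0.0567) and ANKFY1 (0.28 ± 0.051, adjusted p = 0.0621) came next in edgeR. TRIM37 and CYLD were the 2 of 55 ubiquitin ligases and deubiquitinases, with a median of 0.0088. With 0 passing, the medians were 0.019 over 25 cholesterol synthesis genes, −0.027 over 39 hypoxia and glycolysis genes, 0.036 over 19 EGFR family genes and −0.0086 over 35 TGF-beta pathway genes. They were −0.052 over 33 clustered protocadherins, 0.063 over 13 mitochondrially encoded genes, 12 of them on the higher side, and 0.12 over the 5 of 50 germline genes that were measured. In these 7 lists, in that order, 2, 3, 4, 4, 4, 0 and 1 members were higher at an unadjusted p under 0.05, and 1, 2, 1, 4, 1, 0 and 0 lower; DESeq2 called 1 in the TGF-beta list. The mitochondrially encoded median was −0.0062 for shG9a_1 and 0.15 for shG9a_4, and that of cholesterol synthesis −0.069 for shG9a_1 and 0.081 for shG9a_4. The protocadherin median was −0.46, 0.047 and −0.028 in libraries of replicate numbers 1, 2 and 3.

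**Figure D5:**
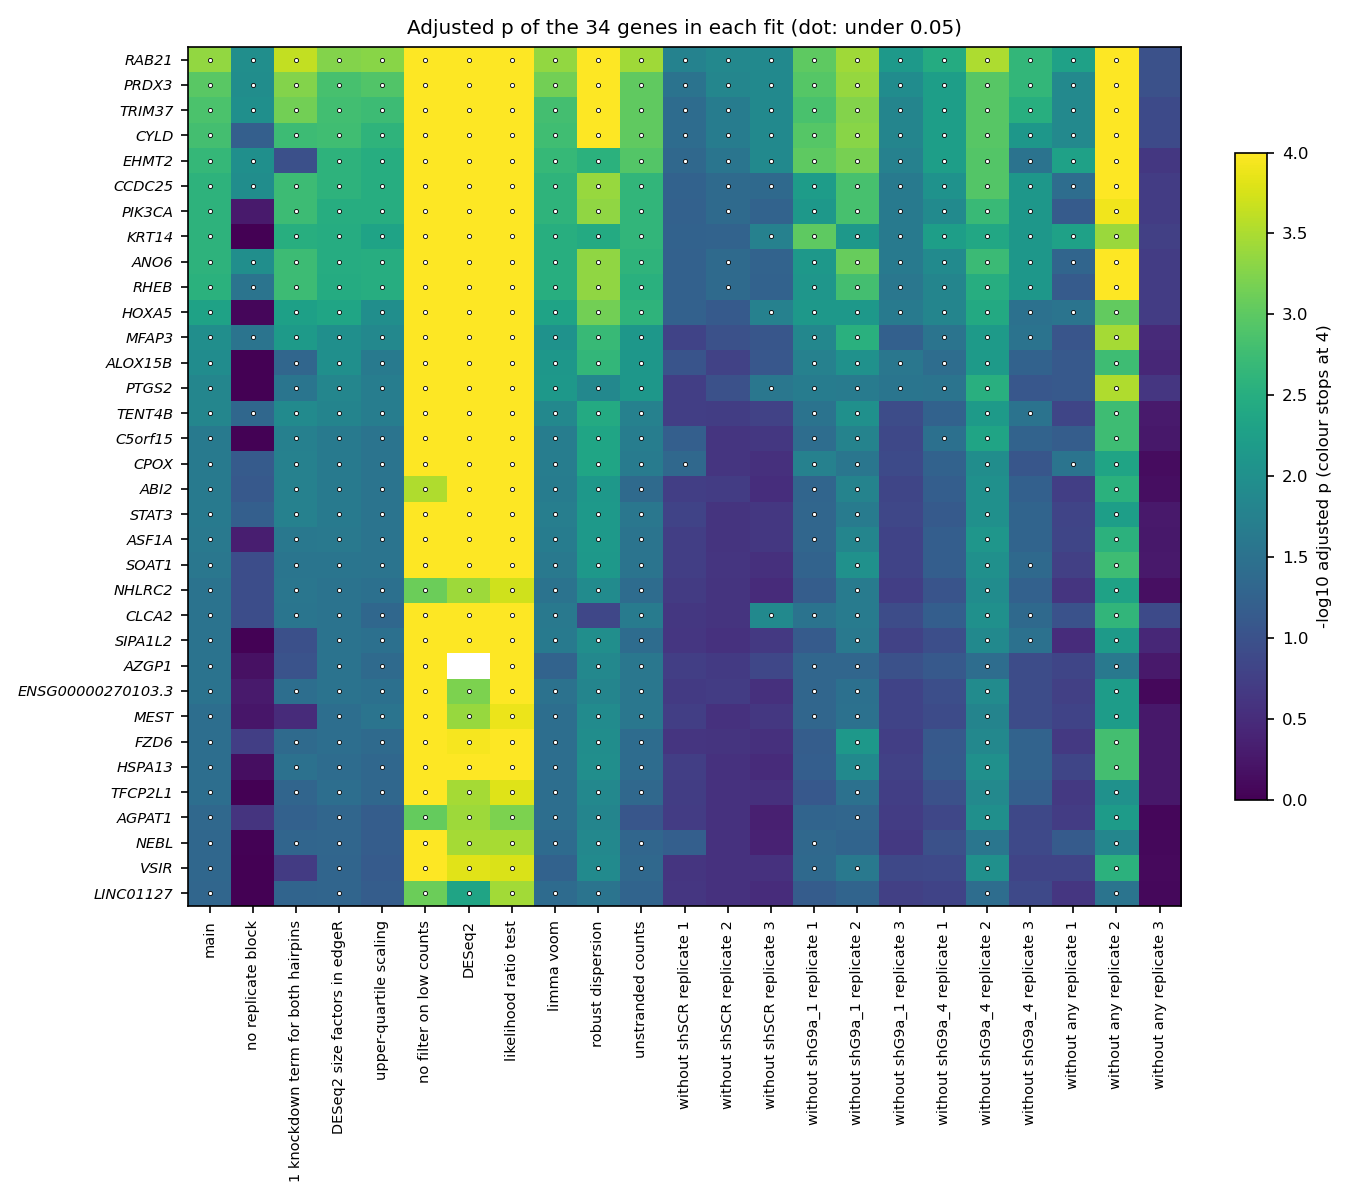
Adjusted p (color, as −log10, stopping at 4) of the 34 genes (rows, by p) in the fit of the report and each of 22 alternatives (columns), with a dot where it is under 0.05 and white where DESeq2 gave none (AZGP1). RAB21, PRDX3, TRIM37, CYLD and EHMT2 keep a dot in all 9 columns that leave out 1 library, and the last column, without replicate number 3, has none.

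Of the 34 genes, 5 passed whichever single library was left out: RAB21, PRDX3, TRIM37, CYLD and EHMT2. At the other end, 16 passed in at most 3 of the 9 fits without a library. The log2 fold change of RAB21 stayed between 0.68 and 0.73 in the 22 alternatives, that of PRDX3 between 0.65 and 0.75, that of TRIM37 between 0.61 and 0.70, and that of EHMT2 between −0.98 and −0.82. KRT14 passed in 18 of 22, with values between 0.74 and 0.89, and PTGS2 in 16, between −0.83 and −0.57. LINC01127 passed in 8, the fewest.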

How the data were processed

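RNA was sequenced from 9 cultures (stranded libraries of total RNA after ribosomal depletion and reads of 75 bases from both ends, as the labels' protocols state). The authors deposited whole-number counts of reads per gene in the layout of STAR, per the file headers, and their reverse-strand column was used, which held 94.7 to 95.1% of stranded reads. Builds GRCh37 and hg19 and the tools R 3.3.1, DESeq, edgeR 3.14.0 and STAR 2.5.2a are listed per the submitters' processing notes; the release of the annotation was not given there. Reads without a gene (no feature 12.2 to 15.4%, ambiguous 2.49 to 2.68%, multimapped 4.57 to 5.49%, unmapped 2.75 to 4.34%) stayed out of library sizes and tests. Such counts leave out reads that map to several places, which makes genes with near-identical copies uncertain. Of 60308 gene IDs 40874 had a symbol in the tables used.

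Tests used edgeR 4.0.16 under R 4.3.3 (quasi-likelihood F-test, TMM scaling, filterByExpr), in a fit of all 9 libraries with a mean per hairpin and the replicate number as a block, leaving 4 residual degrees of freedom. The contrast was the mean of shG9a_1 and shG9a_4 minus shSCR, two-sided, with the Benjamini-Hochberg adjustment over 18435 genes and a threshold of 0.05. Adjusted p-values come from edgeR where no tool is given. The replicate numbers pair the libraries in the data: deviations from group means correlated at 0.178 to 0.461 in the 9 pairs of the same number, and all 9 libraries correlated best with their own. No label ties a number to a day or batch. In 6 library measures (shares of reads without a gene, in mitochondrially encoded genes and in the 10 most abundant), exact permutation tests within replicate numbers gave p of 0.259 or more, where 0.037 is the smallest possible.

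Named genes were, with a mean of at least 1 CPM, the 12 largest changes and the 6 smallest p in each direction. Added to these were up to 3 per list and the 3 genes past the threshold with the smallest p between hairpins. EHMT2, EHMT1, WIZ, ZNF644, MYC and PIK3CA were always named. The comparison, the lists and this rule were chosen with earlier results of these data known.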

Additional observations from a re-analysis of the deposited data

Results flagged for a closer look

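Among the genes past the threshold, 2 had a single knockdown library set apart from the other 5 by Dixon's test at 95%, which chance alone gives in about 1 in 20 groups. AGPAT1 stood at 36.07 CPM in shG9a_1 replicate 2, where the next library had 31.5 CPM, a gap of 0.822 of the whole range against a critical value of 0.625. TENT4B stood at 53.9 CPM in shG9a_4 replicate 2, where the next had 49.5 CPM, a gap of 0.655 of the range.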

How the results depend on the processing

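All 34 genes kept their direction in the 22 alternatives, which refit the libraries that chose them, so nothing is read from that. The count of genes past the threshold was 34 (30 higher, 4 lower) with the block and 9 (8 higher, 1 lower) without the replicate block, which pairs the libraries; without it the count was 7 for shG9a_1 (143 with it), 5 for shG9a_4 (14 with it) and 4 for members of the gene lists (10 with it). With 1 term for both hairpins 2 genes were lower, and EHMT2 was −0.88 (adjusted p 0.106). Without a filter on low counts the pooled count was 404 (324 higher, 80 lower), with 815 for shG9a_1, 139 for shG9a_4, 381 between hairpins and 88 list members. DESeq2 gave 189 (161 and 28), 440, 46, 95 and 38 in that order, the likelihood ratio test 212 (172 and 40), 542, 59, 114 and 39, and robust dispersion 61 (52 and 9), 236, 22, 2 and 17. Upper-quartile scaling gave 70 for shG9a_1, and unstranded counts gave 3 between hairpins and −0.16 for SYCP3, against 0.53 with stranded ones.

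Leaving out a library, or all libraries of a number, gave 0 to 396 genes pooled (0 to 333 higher, 0 to 63 lower), 0 to 1098 for shG9a_1, 0 to 49 for shG9a_4, 0 to 437 between hairpins and 0 to 84 list members. The pooled 396 came without replicate number 2, 12 without number 1 and 0 without number 3, where 991 had an unadjusted p under 0.05 and EHMT2 was −0.98 (adjusted p 0.226); over these fits EHMT2 ran from −0.98 to −0.82. Values that changed sign, all of genes that did not pass, ran from −0.12 to 0.19 (CD14), −0.11 to 0.89 (CD74), −0.10 to 0.027 (EHMT1), −0.018 to 0.40 (MAP2), −0.020 to 0.21 (MT-ND2), −0.014 to 0.30 (MT-ND6), −0.079 to 0.018 (MYC) and −0.11 to 0.16 (WIZ). Of 770 list medians under an alternative, 27 changed sign, in 10 lists. The cause of these differences was not tested. Depth limits genes under 1 CPM, where the median SE was 0.292.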

Other observations

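In RefSeq order, TENT4B and CYLD, which both rose, lie near each other on chromosome 16 with 4 tested genes between them. Of those 4, 1 was higher and 3 were lower, with log2 fold changes from −0.17 to 0.13 and a median of −0.029, and 0 passed the threshold. EHMT2 and AGPAT1 lie on chromosome 6 with 14 tested genes between them, 9 higher and 5 lower, at a median of 0.040.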
